A study of Mus musculus with 189 samples.

Results

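Suv39h1, Suv39h2, Ehmt2, Setdb1, Setdb2 and Trim28 are 6 of the 192 assays of a quantitative PCR panel for chromatin modifiers, run on mouse oocytes and preimplantation embryos. They were chosen by gene name, as H3K9 methyltransferases of the panel with a usable assay together with Trim28, and all 6 were among the 156 assays that passed quality control. They need not be all such enzymes of the panel, and Prdm2 is described below with the other H3K9 genes. The assay for Ehmt1, the partner of Ehmt2, was marked as failed and is not reported. MII oocytes came from superovulated C57BL/6 x DBA/2 F1 females, and zygotes and cleavage embryos from such females mated to C57BL6 males, with no treatment or genetic change in any group. The main set held 11 MII oocytes, 14 zygotes, and single blastomeres, small groups of blastomeres or whole embryos of the 2-cell (21 samples), 3-cell (7), 4-cell (12), 8-cell (27), 16-cell (26) and 32-cell (50) stages. These came from 58 oocytes or embryos, the replicates of every stage test, made up of 11 oocytes, 14 zygotes, and 8, 3, 6, 7, 2 and 7 embryos of 2, 3, 4, 8, 16 and 32 cells. At the 2-cell stage 11 blastomeres had no embryo named in their labels and were counted as 1 replicate. The 2 embryos labelled 16-cell have sample titles that number blastomeres up to 20 and 19, so their cell number is uncertain. Whole 16- and 32-cell embryos (3 of each), 1 labelled group of inner cell mass (ICM) cells, 1 of trophectoderm (TE) cells and 10 samples of diluted embryonic stem cell (ESC) RNA were kept apart.

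Methylation of histone H3 at lysine K9 marks silent chromatin, where it is bound by HP1 proteins. Suv39h1 and Suv39h2 are paralogous enzymes that place the trimethyl mark at pericentromeric heterochromatin, Ehmt2 (G9a) places mainly the dimethyl mark in euchromatin, and Setdb1 is brought to retroelements and imprinted regions by Trim28 (KAP1), the corepressor of KRAB zinc finger proteins. Setdb2 is a divergent relative of Setdb1. The oocyte supplies transcripts to the embryo, and most of them are replaced by embryonic transcription from the 2-cell stage on.

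Expression is given as a normalised log2 value, 30 minus the cycle threshold (Ct) of the gene, minus the mean of the same quantity for the control genes Hnrnpr, Ssu72 and Ube2e1. A gene with no product has a Ct of 30 and is called undetected, so its normalised value is set by the control genes alone: it averaged −17.08 in MII oocytes and −12.46 in 32-cell samples. The mean Ct of the control genes had a median of 12.9 in MII oocytes, 15.4 in 8-cell and 17.7 in 32-cell samples. The labels were checked against marker genes. Dazl, a germ cell transcript, was detected in 11 of 11 MII oocytes and 9 of 76 samples of the 16- and 32-cell stages, and Nanog, a pluripotency factor, in 0 of 11 and 76 of 76. ZP3, an oocyte transcript, was detected in 11 of 11 and 44 of 76, with medians of 2.1 and −6.3. The lineage genes Sox2, Cdx2, Gata3 and Krt8 were detected in 11 of 11 oocytes, and in 48, 60, 52 and 76 of the 76 later samples. Values of different genes come from different primer pairs, so only the change of a difference between genes is compared.

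The RefSeq annotation (GRCm38.p6) places Suv39h1 on the X chromosome (chrX:8061171-8074760) and Suv39h2 on chromosome 2 (chr2:3455815-3474986), both on the minus strand. Their promoter windows, which span the annotated start, are shown because these paralogs had opposite courses from oocyte to blastocyst. Each is printed from RefSeq on the strand of the gene, for Suv39h1 the window at the start of the annotated gene of 2 windows listed (chrX:8074711-8075010) and for Suv39h2 the single one listed (chr2:3474937-3475236). Capitals mark matches on either strand to the GC box (GGGCGG) and the CCAAT box (CCAAT), which do not overlap.
Suv39h1: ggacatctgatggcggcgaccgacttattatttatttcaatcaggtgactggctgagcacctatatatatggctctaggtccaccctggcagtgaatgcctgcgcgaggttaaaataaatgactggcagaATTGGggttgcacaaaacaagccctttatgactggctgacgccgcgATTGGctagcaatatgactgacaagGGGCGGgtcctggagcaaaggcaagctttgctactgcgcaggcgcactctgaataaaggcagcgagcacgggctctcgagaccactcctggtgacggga
Suv39h2: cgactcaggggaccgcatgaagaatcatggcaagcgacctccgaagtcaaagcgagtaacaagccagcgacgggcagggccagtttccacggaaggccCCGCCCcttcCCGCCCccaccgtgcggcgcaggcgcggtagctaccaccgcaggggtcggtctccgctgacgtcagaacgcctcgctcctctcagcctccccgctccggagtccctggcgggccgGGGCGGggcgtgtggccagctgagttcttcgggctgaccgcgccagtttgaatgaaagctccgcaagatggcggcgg
The Suv39h1 window held 1 GC box and 2 CCAAT boxes and the Suv39h2 window 3 GC boxes and no CCAAT box. Neither held TATAAA. Of 32851 promoter windows of the same length, 35.7% held a GC box, 37.4% a CCAAT box and 13.6% TATAAA. CG dinucleotides numbered 15 in the Suv39h1 window and 33 in the Suv39h2 window, against a median of 7 over all windows. The other Suv39h1 window (chrX:8074312-8074611) held 37 CG dinucleotides, 1 GC box and no CCAAT box, so the contrast between the paralogs depends on the window. No measurement here bears on the promoters themselves.

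**Figure D1:**
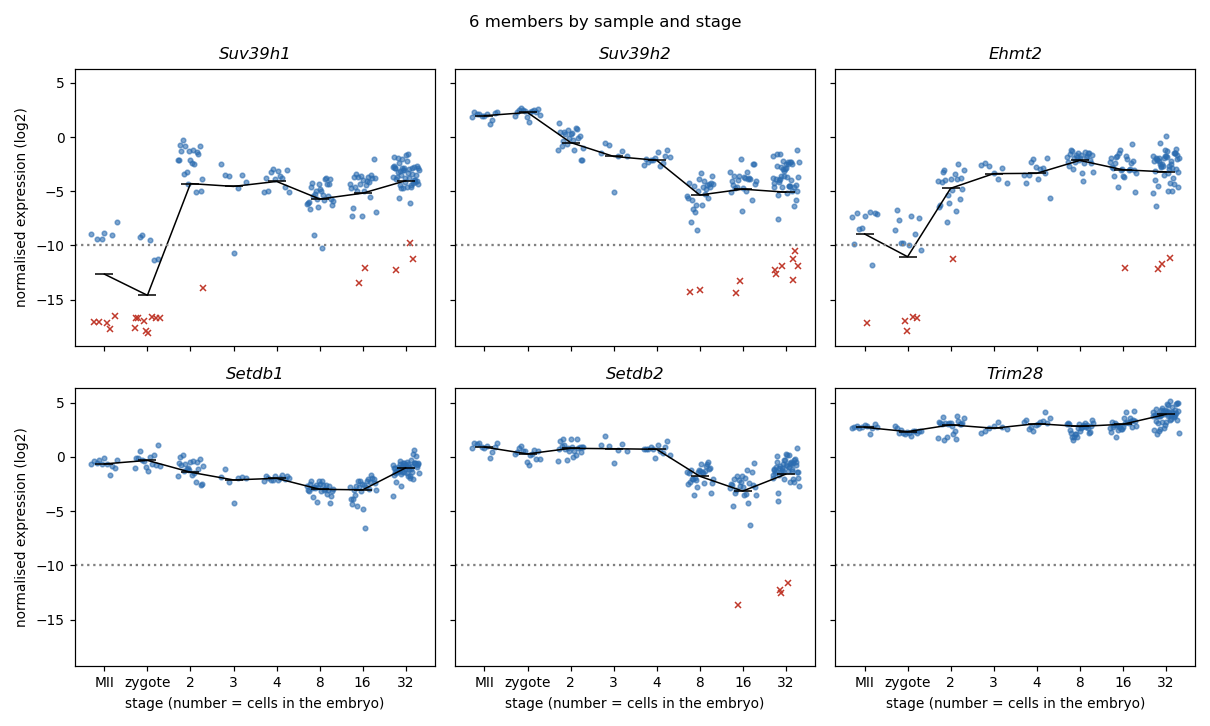
Normalised expression (log2, y axis) of each member in the samples of the main set by stage (x axis). Blue points are samples in which the gene was detected, red crosses undetected samples, black bars joined by a line the mean over oocytes or embryos, and the dotted line the study's threshold of −10. Suv39h1 has crosses mainly in oocytes and zygotes, and Ehmt2 in these and at the 2-, 16- and 32-cell stages. Suv39h2 has them only from the 8-cell stage on, Setdb2 only at the 16- and 32-cell stages, and Setdb1 and Trim28 have none.

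Suv39h2 was abundant in the oocyte and had fallen by the 8-cell stage, whereas Suv39h1 was at the limit of detection in oocytes and zygotes and rose at the 2-cell stage. From MII oocytes to 16- and 32-cell embryos (11 and 9 replicates), 3 members rose (Suv39h1, Ehmt2, Trim28) and 3 fell (Suv39h2, Setdb1, Setdb2), all 6 past an adjusted p of 0.05 in limma. In this comparison 84.6% of the 156 genes were called, so the share of members called is near that of the panel. The median difference of the genes other than the controls was −0.35. The sizes depend on the scaling, since that median was −3.91 in the table normalised by the authors and −4.65 without normalisation. On these scales, in that order, Suv39h1 differed by 4.80 and 4.06, Ehmt2 by 2.21 and 1.47 (adjusted p = 0.0586 and 0.247, not called) and Trim28 by −2.57 and −3.31. Suv39h2 differed by −10.55 and −11.29, Setdb1 by −4.38 and −5.12, and Setdb2 by −6.40 and −7.14.

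Suv39h2 was detected in 11 of 11 MII oocytes, with a lowest, median and highest value of 1.2, 2.12 and 2.30, and in 14 of 14 zygotes at 1.36, 2.39 and 2.66. The 21 samples of the 2-cell stage lay between −2.13 and 1.30 with a median of −0.10, the 7 of the 3-cell stage between −5.11 and −0.52, and the 12 of the 4-cell stage between −2.68 and −1.16. Zygotes and 2-cell embryos did not overlap in their replicate means. In 8-cell samples it was detected in 25 of 27, with a median of −4.95, and at the 16- and 32-cell stages in 67 of 76, with a median of −3.94. Suv39h2 did not pass the test from MII oocyte to zygote, the comparison in which no member was called, 3 had an unadjusted p under 0.05, and 1.92% of all genes were called. It fell from zygote to 2-cell by 2.77 (SE 0.39, limma adjusted p = 1.29e-08), from 2-cell to 4-cell by 1.64 (SE 0.48, adjusted p = 0.00821) and from 4-cell to 8-cell by 3.21 (SE 0.49, adjusted p = 1.85e-07). The first step was −5.77 without normalisation. The 2-cell to 4-cell call was lost when every sample was fitted (adjusted p = 0.0821) and was −0.35 (adjusted p = 0.63) without normalisation. Means of the 8-, 16- and 32-cell stages were −5.35, −4.81 and −5.08, and neighbours in this order overlapped. In all, Suv39h2 fell by 6.99 (SE 0.40, adjusted p = 1.51e-22), which is 127-fold if each cycle doubles the product. This size too depends on the undetected samples: the difference was −6.67 with a floor at −10 and −5.82 with undetected values left out.

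Suv39h1 was detected in 6 of 11 MII oocytes, where the detected values lay between −9.44 and −7.86, and in 5 of 14 zygotes, between −11.33 and −9.06. The median Ct of the control genes was 12.9 in both the 5 undetected and the 6 detected oocytes, and 13.3 in the 9 undetected against 13.0 in the 5 detected zygotes. Its part in the missing values was not tested. At the 2-cell stage 20 of 21 samples were positive, with a lowest detected value of −5.06, a median over all 21 of −2.13 and a highest of −0.23. Suv39h1 thus rose from zygote to 2-cell by 10.3 (SE 1.37, limma adjusted p = 3.18e-09). How large the rise is rests on how undetected samples are treated. A floor at −10 made it 6.04, and leaving undetected values out 7.16. From MII oocytes to 16- and 32-cell embryos the rise was 8.36 (SE 1.39, adjusted p = 3.34e-07), or 5.23 with the floor at −10 and 5.16 with undetected values left out. Stage means at 2, 3, 4, 8, 16 and 32 cells lay between −5.72 and −4.03, and neighbours in the order of levels overlapped. Single replicates of the 2-cell stage ran from −13.94 to −1.17. No step after the 2-cell stage passed the test. From 4-cell to 8-cell the difference was −1.62 (SE 1.72), while the SD between embryos was 0.81 (n = 6) and 0.62 (n = 7). The 2-cell sample without a product was a whole embryo. The p-values here and below measure the spread between these oocytes and embryos. In limma this spread is shared over all stages, those with undetected values included.

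The difference between the paralogs in the same sample needs no control genes. Suv39h1 minus Suv39h2 was −14.62 ± 4.31 (SD, n = 11) in MII oocytes, −16.87 ± 3.37 (SD, n = 14) in zygotes, −3.79 ± 3.98 (SD, n = 8) in 2-cell, −1.95 ± 0.68 (SD, n = 6) in 4-cell, −0.37 ± 1.30 (SD, n = 7) in 8-cell, and 1.05 ± 1.78 (SD, n = 7) in 32-cell embryos. The highest oocyte (−10.16) and zygote (−11.57) lay below the lowest 32-cell embryo (−2.19). The shift from MII oocytes to 16- and 32-cell embryos was 15.35 (two-sided exact permutation test, p = 1.19e-05, the smallest the design allows, and 6.25e-05 adjusted over 21 tests of 3 gene pairs and 7 comparisons). The largest step was from zygote to 2-cell, with a shift of 13.07 (adjusted p = 7.51e-05 in the exact test), and the step from 4-cell to 8-cell was 1.58 (adjusted p = 0.0356). Suv39h1 was undetected in 5 of 11 MII oocytes, 9 of 14 zygotes and 1 of 21 2-cell samples. In these samples the difference is set by Suv39h2 and the Ct assigned to an undetected gene. The sizes of the 15.35 and 13.07 shifts therefore depend on that Ct. Suv39h1 was detected in the highest oocyte and the highest zygote. The difference depends on both primer pairs, so its sign is not a comparison of levels. With 2 embryos at the 16-cell stage, an exact permutation test of a gene pair against its neighbouring stages cannot go below p = 0.0556.

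**Figure D2:**
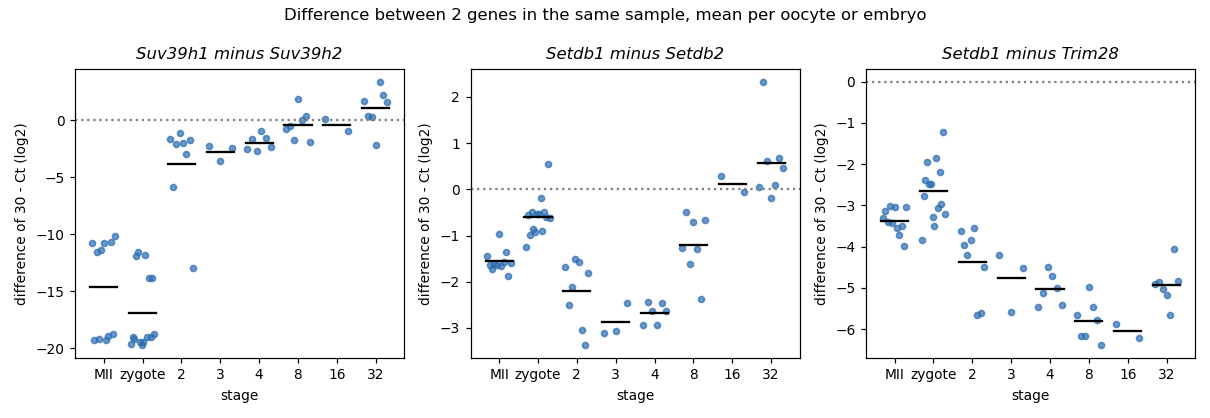
Difference of 30 minus Ct (log2, y axis) between 2 genes of the same sample, averaged per oocyte or embryo, by stage (x axis). Points are the 58 oocytes or embryos and bars stage means. Suv39h1 minus Suv39h2 climbs from below −10 in oocytes and zygotes to a mean of 1.05 at the 32-cell stage, Setdb1 minus Setdb2 passes 0 at the 16-cell stage, and Setdb1 minus Trim28 drops to −6.05 at the 16-cell stage.

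Ehmt2 also rose at the 2-cell stage, and unlike Suv39h1 it was detected in most zygotes. It was detected in 10 of 11 MII oocytes, with a lowest, median and highest value of −17.15, −7.38 and −6.94, and in 10 of 14 zygotes, at −17.85, −9.79 and −6.69. At the 2-cell stage 20 of 21 samples were positive with a median of −4.18, and all samples of the 3-, 4- and 8-cell stages were. The 27 samples of the 8-cell stage lay between −4.05 and −1.18, above every oocyte and zygote. Ehmt2 rose from zygote to 2-cell by 6.31 (SE 1.13, limma adjusted p = 2.45e-06), or by 3.31 (adjusted p = 0.00861) without normalisation. In this comparison 3 members rose and 2 fell, and 68.6% of all genes were called. No later step passed the test. Because the fit shares its spread over all stages, the SE from 4-cell to 8-cell was 1.42. The SD between embryos was 0.67 (n = 6) and 0.35 (n = 7) at these stages. The order of stage means ran from 8-cell (−2.16) through 16-cell (−3.02), 32-cell (−3.21), 4-cell (−3.35) and 3-cell (−3.37) to 2-cell (−4.73), with overlap between neighbours, and then MII oocyte (−8.94), which stood apart, and zygote (−11.04). The rise from MII oocytes to 16- and 32-cell embryos was 5.77 (SE 1.15, adjusted p = 1.02e-05), and 5.40 with undetected values left out.

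Setdb1 was detected in every sample of the main set. MII oocytes had a lowest, median and highest value of −1.64, −0.61 and −0.10, zygotes of −1.31, −0.32 and 1.13, 2-cell samples of −2.62, −0.98 and 0.22, 8-cell samples of −4.27, −2.85 and −2.18, 16-cell samples of −6.56, −2.76 and −1.71, and 32-cell samples of −3.61, −0.97 and 0.68. Every 8- and 16-cell sample lay below every zygote. In replicate means the 16-cell embryos (−3.20 to −2.88) lay below the 32-cell embryos (−1.48 to −0.14), while stages next to each other in the order of levels overlapped. Setdb1 fell from zygote to 2-cell by 1.09 (SE 0.25, limma adjusted p = 9.99e-05) and from 4-cell to 8-cell by 1.01 (SE 0.31, adjusted p = 0.00564), and rose from 16-cell to 32-cell by 2.03 (SE 0.45, adjusted p = 0.000899). Between the ends of the series it fell by 0.82 (SE 0.25, adjusted p = 0.00265). With single cells alone the 2-cell step was −0.47 (adjusted p = 0.272), and without Ssu72 among the controls the difference between the ends was −0.34 (adjusted p = 0.262). The 8-cell step was −0.54 (adjusted p = 0.105) when samples were scaled to their median gene, and the 32-cell step 1.87 (adjusted p = 0.0598) without 16-cell replicate 4. The 32-cell step was 0.87 (adjusted p = 0.108) in the authors' table and 0.061 (adjusted p = 0.946) without normalisation, and the 2-cell step −4.09 without normalisation.

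Whole embryos were set beside the 16- and 32-cell blastomere samples for Setdb1. Its normalised values were −2.80, −2.70 and −2.57 in the 3 whole 16-cell and −2.79, −2.39 and −2.23 in the 3 whole 32-cell embryos, against a mean over replicates of −3.04 ± 0.22 (SD, n = 2) and −1.01 ± 0.46 (SD, n = 7) in the blastomere samples. With the whole embryos added the difference between the stages was 1.38 (limma adjusted p = 0.00132). The 32-cell samples differed from the 16-cell samples in lineage markers too: Cdx2 and Gata3, transcription factors of the trophectoderm, were detected in 34 and 26 of 50 samples, against 26 and 26 of 26 at the 16-cell stage, and Sox2, a factor of the inner cell mass, in 40 of 50 against 8 of 26. Nanog was detected in every sample of both stages, with a median of 1.07 at 32 cells and 1.53 at 16 cells. The part of these markers in the difference was not tested.

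Setdb2 was lower from the 8-cell stage on. Its difference from zygote to 2-cell was 0.52 (95% interval 0.03 to 1.00, limma adjusted p = 0.0534) and was called in 6 of the alternatives, among them a floor at −10 and scaling to the median gene. The call without normalisation was of a fall, with a median gene difference of −3.36 and Setdb2 0.87 above that median. Its stage means were 0.91 ± 0.41 (SD, n = 11) in MII oocytes, 0.28 ± 0.51 (SD, n = 14) in zygotes, 0.79 ± 0.45 (SD, n = 8) in 2-cell and 0.70 ± 0.10 (SD, n = 6) in 4-cell embryos, and these overlapped. At the 8-cell stage the 27 samples had a lowest, median and highest value of −3.55, −1.48 and −0.45, none of which reached the lowest 4-cell sample at −0.12. It fell from 4-cell to 8-cell by 2.49 (SE 0.30, limma adjusted p = 9.65e-10), a step at which 3 members fell, none rose and 49.4% of all genes were called. From 8-cell to 16-cell it was the only member called, with a fall of 1.37 (SE 0.44, adjusted p = 0.0157), where 28.2% of all genes were called, and from 16-cell to 32-cell it rose by 1.56 (SE 0.44, adjusted p = 0.0106). In that last comparison Setdb1, Setdb2 and Trim28 rose and 10.9% of all genes were called. Both calls at the 16-cell stage were lost without 16-cell replicate 4 (differences of −1.04 and 1.24). Without normalisation they were −2.73 and −0.40, and in the authors' table −3.24 and 0.41 (adjusted p = 0.452 for the latter). Whole embryos had a mean of −2.55 ± 0.33 (SD, n = 3) at 16 cells and −2.75 ± 0.18 (SD, n = 3) at 32 cells, and with them added the 32-cell difference was 0.85 (adjusted p = 0.0355). Between the ends of the series Setdb2 fell by 2.84 (SE 0.24, adjusted p = 2.37e-15), 7.17-fold if each cycle doubles the product. With undetected values left out this difference was −2.36. The annotated Setdb2 locus (chr14:59402009-59440880) lies inside the readthrough gene Gm45935, whose transcripts the assay may share.

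The difference between Setdb1 and Setdb2 in the same sample moved in both directions. It was −1.55 ± 0.24 (SD, n = 11) in MII oocytes, −0.60 ± 0.43 (SD, n = 14) in zygotes, −2.21 ± 0.70 (SD, n = 8) in 2-cell, −2.68 ± 0.23 (SD, n = 6) in 4-cell, −1.20 ± 0.66 (SD, n = 7) in 8-cell and 0.58 ± 0.84 (SD, n = 7) in 32-cell embryos. It rose from MII oocyte to zygote by 0.95 in a permutation test (adjusted p = 7.51e-05), although neither gene alone passed the limma test at this step. It then fell by 1.61 to the 2-cell stage (adjusted p = 6.25e-05) and rose by 1.47 from 4-cell to 8-cell (adjusted p = 0.00306), both in the exact permutation test. The shift from MII oocytes to 16- and 32-cell embryos was 2.02 (adjusted p = 6.25e-05).

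The stage means of Trim28 spanned the narrowest range of the members, from 2.34 to 3.92. It was detected in every sample of the main set, with a lowest value of 1.52 and a highest of 5.16. Medians were 2.74 in MII oocytes, 2.34 in zygotes, 3.07 in 2-cell, 2.64 in 3-cell, 3.15 in 4-cell, 2.71 in 8-cell, 2.95 in 16-cell and 3.90 in 32-cell samples, and the ranges of neighbours in the order of levels overlapped. It rose from zygote to 2-cell by 0.62 (SE 0.17, limma adjusted p = 0.00123), from 16-cell to 32-cell by 0.91 (SE 0.31, adjusted p = 0.0468) and between the ends of the series by 0.99 (SE 0.17, adjusted p = 1.08e-06), 1.99-fold if each cycle doubles the product. The direction depends on the scaling: without normalisation the 2-cell difference was −2.38, and between the ends the sign turned both there and in the authors' table. Relative to the median of the other genes the difference between the ends was 1.35, a value that no rescaling of samples can alter. Without Ube2e1 among the controls the 2-cell rise was 0.12 (adjusted p = 0.591). Without 16-cell replicate 4 the 32-cell difference was 0.59 (adjusted p = 0.572), without replicate 5 it was 1.23 (adjusted p = 0.0624), and it was −0.25 (adjusted p = 0.673) in the authors' table. The 32-cell call was also lost with samples scaled to their median gene (0.66, limma adjusted p = 0.13). Without Hnrnpr or Ube2e1 among the controls it was lost too (adjusted p = 0.186 and 0.148). Whole embryos averaged 3.09 ± 0.13 (SD, n = 3) at 16 and 3.09 ± 0.23 (SD, n = 3) at 32 cells. The whole 32-cell values were 2.89, 3.04 and 3.34, below the mean of 3.92 ± 0.28 (SD, n = 7) of the blastomere samples. With whole embryos added the 32-cell difference was 0.62 (adjusted p = 0.0314). The part of the lineage markers given above in this difference was not tested.

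Setdb1 and its partner Trim28 drew apart over cleavage. Setdb1 minus Trim28 was −3.37 ± 0.31 (SD, n = 11) in MII oocytes, −2.66 ± 0.71 (SD, n = 14) in zygotes, −4.37 ± 0.84 (SD, n = 8) in 2-cell, −5.04 ± 0.38 (SD, n = 6) in 4-cell, −5.80 ± 0.49 (SD, n = 7) in 8-cell and −4.93 ± 0.48 (SD, n = 7) in 32-cell embryos. It rose by 0.72 from MII oocyte to zygote (permutation test, adjusted p = 0.00756), then fell by 1.71 to the 2-cell stage (adjusted p = 7.51e-05) and by 0.76 from 4-cell to 8-cell (adjusted p = 0.0294), both in the exact permutation test. From MII oocytes to 16- and 32-cell embryos it fell by 1.81 (adjusted p = 6.25e-05), and the lowest oocyte (−3.97) lay above every one of these embryos, of which the highest was −4.06.

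**Figure D3:**
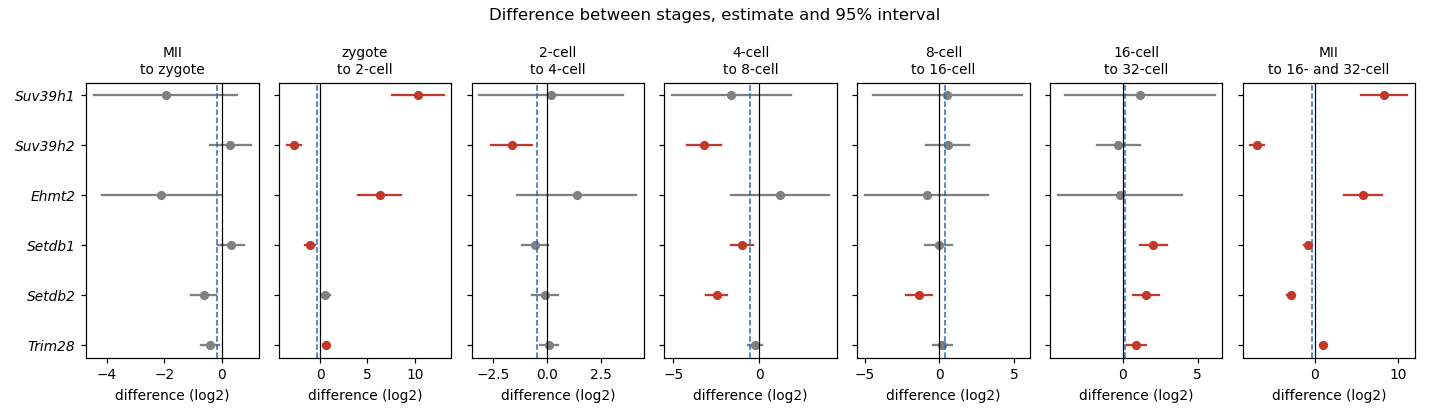
Difference between stages (log2, x axis, with its own scale in each panel) of each member, with the limma estimate as a point and its 95% interval as a line. Red marks an adjusted p under 0.05 over 156 genes and the dashed blue line is the median difference of the 153 genes other than the controls. No member is red from MII oocyte to zygote, 5 are from zygote to 2-cell, 1 (Suv39h2) from 2-cell to 4-cell, where 32.7% of all genes were called, and all 6 between the ends.

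Oocytes, zygotes and whole embryos each hold all the RNA of 1 conceptus, so 30 minus Ct without normalisation was compared among them, with 3 whole embryos at each stage. In a whole embryo, fewer cells with a transcript and less transcript per cell cannot be told apart. From zygote to the whole 2-cell embryo the median gene was lower by 1.79, 77.6% of all genes were called, 2 members rose and 3 fell. Suv39h2 was 19.33 ± 0.29 (SD, n = 14) in zygotes and between 12.94 and 14.23 in 2-cell embryos, so that it fell by 5.59 (SE 0.29, limma adjusted p = 4.78e-18), larger than on the normalised scale. Setdb1 fell by 3.25 (SE 0.38, adjusted p = 1.88e-09) and Setdb2 by 1.10 (SE 0.35, adjusted p = 0.00539), though the latter was −0.43 (adjusted p = 0.298) without 2-cell replicate 3. Ehmt2 rose by 5.6 (SE 1.93, adjusted p = 0.0092) and Suv39h1 by 5.41 (SE 2.26, adjusted p = 0.0293), where the embryos were at 0 (undetected), 11.30 and 12.33. The Suv39h1 value was 9.35 (adjusted p = 0.00098) without the undetected embryo, replicate 3, and 3.70 (adjusted p = 0.205) or 3.18 (adjusted p = 0.267) without replicate 1 or 2. Trim28 did not pass the test at this step (−0.65, 95% interval −1.39 to 0.08).

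From the 2-cell to the 8-cell embryo 38.5% of all genes were called. Suv39h2 fell further by 1.98 (SE 0.37, adjusted p = 5.32e-05) and Setdb2 by 1.21 (SE 0.45, adjusted p = 0.0356), while Trim28 rose by 1.16 (SE 0.46, adjusted p = 0.0477). The Trim28 value was 0.56 without 2-cell replicate 3, whose control genes had a mean Ct of 16.1 against 13.7 and 13.8 in the other embryos. The Setdb2 value was −0.79 (adjusted p = 0.215) without 2-cell replicate 2. A further 3 samples are labelled as 2-cell blastomeres but have titles that name no blastomere, so they may be whole embryos. With them added Trim28 was 2.20 (adjusted p = 0.000387) and Setdb2 −0.52 (adjusted p = 0.304). From the 8-cell to the 32-cell embryo 40.4% of all genes were called and Suv39h2 alone among the members was, with a rise of 0.95 (SE 0.37, adjusted p = 0.0383) that lost its call when any one of the 8-cell embryos was left out. The whole 16-cell embryos between them were higher than both: Suv39h2 averaged 11.76, 15.29 and 12.71 at 8, 16 and 32 cells, Trim28 19.90, 22.34 and 20.44, and the control gene Hnrnpr 15.62, 17.83 and 14.96. From MII oocyte to the whole 32-cell embryo 83.3% of all genes were called and 5 members were: Suv39h1 rose by 8.77 (SE 2.31, adjusted p = 0.000823) and Ehmt2 by 6.72 (SE 1.98, adjusted p = 0.00235), and Suv39h2 fell by 6.34 (SE 0.30, adjusted p = 6.57e-20), Setdb2 by 3.38 (SE 0.36, adjusted p = 2.58e-10) and Setdb1 by 1.55 (SE 0.39, adjusted p = 0.00049). Trim28 content was 19.81 ± 0.21 (SD, n = 11) in oocytes and 19.83, 20.43 and 21.08 in the 32-cell embryos, a difference of 0.64 (95% interval −0.11 to 1.39) that did not pass the test.

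**Figure D4:**
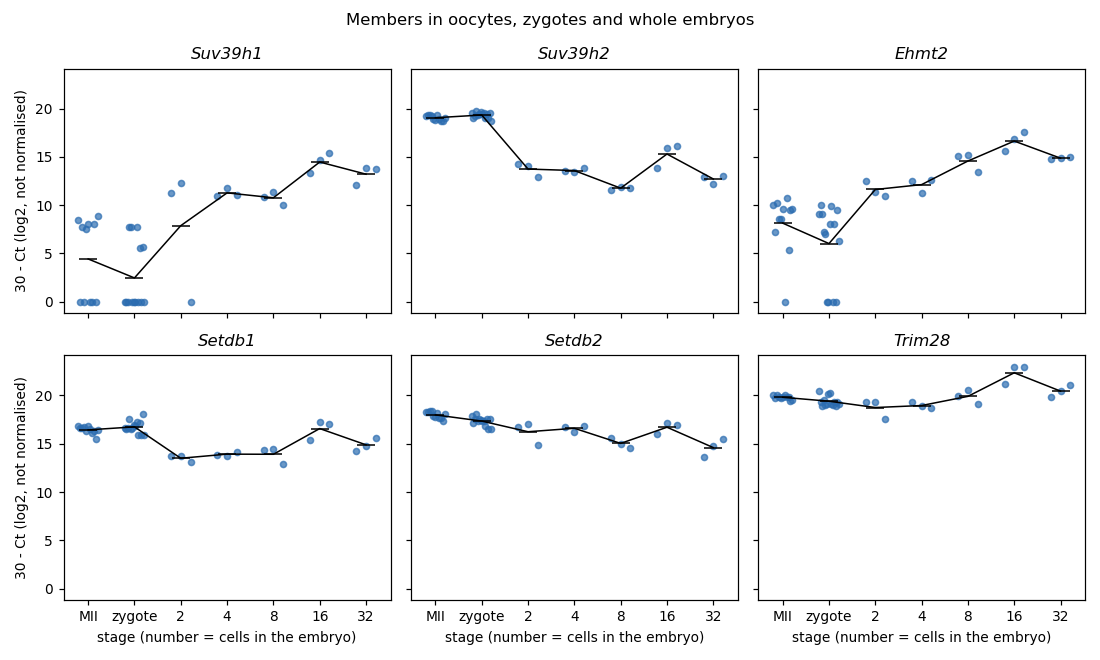
30 minus Ct without normalisation (log2, y axis) of each member in MII oocytes, zygotes and whole embryos (x axis, number of cells). Points are samples, with 0 for undetected, and bars joined by a line are means. Suv39h2 drops from 19.33 in zygotes to 13.74 in 2-cell embryos, and Trim28 stays between means of 18.75 and 22.34.

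Other genes of the panel that act on H3K9 methylation were described for comparison: 3 HP1 genes, 10 demethylases or their relatives, Prdm2 and Sirt1, 15 in all. From MII oocytes to 16- and 32-cell embryos 5 of the 15 rose, 6 fell and 4 were not called, with a median difference of 0.01. The largest rise was that of Cbx3 (HP1 gamma), from −5.59 ± 1.17 (SD, n = 11) to 1.74 ± 0.36 (SD, n = 9), and the largest fall that of the demethylase gene Jhdm1d, from 1.93 ± 0.29 (SD, n = 11) to −3.18 ± 0.55 (SD, n = 9). From zygote to 2-cell 6 of the 15 rose and 8 fell, from 4-cell to 8-cell none rose and 7 fell, and from 16-cell to 32-cell 1 rose and none fell. Genes with the profile most like each member over 58 oocytes and embryos, by Spearman rho among the genes other than members and controls, were Suv420h1 (0.88) and Tet1 (0.82) for Suv39h1, Sfmbt1 (0.93) and Phf8 (0.92) for Suv39h2, Eif1a (0.85) and Hand1 (0.83) for Ehmt2, Nsd1 (0.87) and Scmh1 (0.86) for Setdb1, Setd1a (0.78) and Mll2 (0.78) for Setdb2, and Smyd5 (0.72) and Kdm3b (0.67) for Trim28. All profiles share the same samples and control genes. Among members, rho was −0.62 for Suv39h1 with Suv39h2 and 0.68 for Suv39h1 with Ehmt2.

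Single blastomeres of the same embryo were compared where an embryo gave 3 or more. The mean SD of Trim28 within an embryo was 0.28 at the 8-cell stage (24 cells of 4 embryos), and 142 of 147 other genes had a larger one. Among 20 single cells of 2 16-cell embryos it was 0.45 (133 genes larger), and among 26 of 4 32-cell embryos 0.65 (124 larger). For Setdb1 the SD was 0.18 in 4-cell embryos (7 cells of 2 embryos) and then 0.50, 1.19 and 0.64 in those of 8, 16 and 32 cells. Suv39h1, Suv39h2, Ehmt2 and Setdb2 had larger SDs than both, from 2.09 to 2.93 in 16-cell and from 2.06 to 3.06 in 32-cell embryos, where each was undetected in 2 to 5 of the 26 cells. The median SD of the other genes was 0.61 in 8-cell and 1.12 in 32-cell embryos.

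At the 16- and 32-cell stages all 6 members were detected in 56 of 76 samples, 18 samples lacked 1 member and 2 samples lacked 2. Suv39h2 was undetected in 9 samples, Suv39h1 in 5, Ehmt2 and Setdb2 in 4 each, and Setdb1 and Trim28 in none. Both Suv39h genes were missing together in 1 sample, Suv39h2 alone in 8 and Suv39h1 alone in 4. Over both stages pooled, the median control gene Ct was 17.7 in samples without Suv39h2 against 16.8 in the others, and 17.9 against 16.8 for Suv39h1. Pooling mixes the stages, whose medians were 15.96 at 16 cells and 17.74 at 32 cells. Within stages the Suv39h2 values were 16.16 against 15.96 at 16 cells and 18.07 against 17.71 at 32 cells. For Suv39h1 they were 18.77 against 17.74 at 32 cells, and the undetected samples were also higher at 16 cells. For Setdb2 at 32 cells both values were 17.74. The part of the control gene level in the missing values was not tested.

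The members were set against a lineage score, 11 core ICM genes averaged, less the average of 8 core TE genes, with each embryo's mean taken out. The gene sets are those of the study, which chose them on these samples, and Trim28 belongs to its ICM set and was left out of the score here. Spearman rho over 76 samples of 9 embryos was 0.60 for Trim28. The 11 core ICM genes, which are part of the score, had a median of 0.71, and 128 genes outside the core sets, the members and the controls a median of 0.10. Since Trim28 was chosen as a core gene on these samples, its rho is not independent evidence of a lineage difference. It was −0.22 for Ehmt2 and between −0.02 and 0.06 for Suv39h1, Suv39h2, Setdb1 and Setdb2. Trim28 had a rho of 0.54 with Sox2 and 0.60 with Nanog, and of −0.50 with Cdx2 and −0.42 with Gata3. Within each of the 6 embryos with 6 or more samples its rho was above 0, from 0.33 to 0.68, and that of Ehmt2 was below 0, from −0.73 to −0.06. The rho of Trim28 was 0.33 over the 16-cell and 0.67 over the 32-cell samples. Part of it came from 9 samples of 4 32-cell embryos with a score of more than 8 below their embryo mean: without them rho was 0.23. It was also 0.23 without normalisation. Suv39h2 had a rho of 0.48 over the 16-cell and −0.24 over the 32-cell samples.

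**Figure D5:**
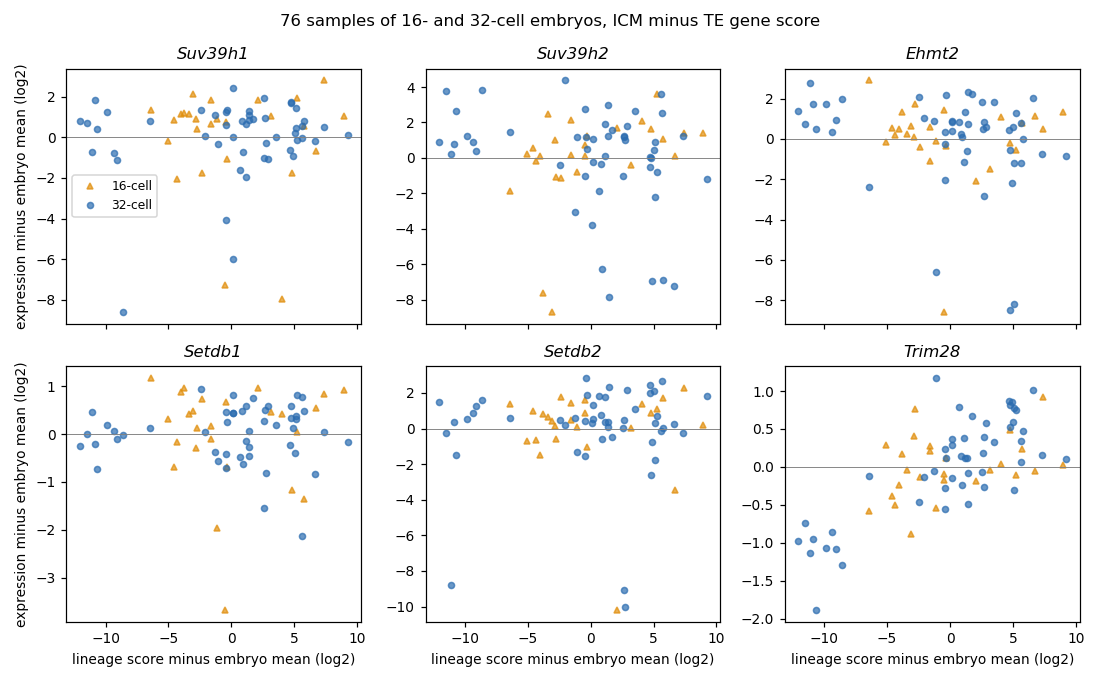
Expression of each member (log2, y axis) against the lineage score (log2, x axis) in 76 samples of 16-cell (orange triangles) and 32-cell (blue circles) embryos, both minus the embryo mean. Samples to the right lean to ICM genes and those to the left to TE genes. Trim28 rises along the score (rho 0.60), with 9 samples of 32-cell embryos at the lower left, and rho of the remaining members lies between −0.22 and 0.06.

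Between the members themselves, rho over the same 76 samples had a median of 0.04 over 15 pairs, from −0.18 (Ehmt2 with Trim28) to 0.38 (Suv39h1 with Setdb1), against a median of 0.09 over all 11628 gene pairs. Suv39h1 with Suv39h2 had a rho of 0.06 and Setdb1 with Trim28 of 0.09. The labelled ICM and TE groups were 1 sample each, so nothing was tested. The ICM group also held the TE transcripts Gata3 (1.53, and 2.73 in the TE group) and Cdx2 (0.43 and 1.84), above the medians of −5.49 and −4.12 in 32-cell samples, while Sox2 was −0.17 and −6.0. In this order Setdb2 was −0.61 and −2.44, Trim28 3.18 and 2.47, Ehmt2 −2.74 and −2.0, Setdb1 −1.64 and −1.95, Suv39h1 −3.91 and −3.61, and Suv39h2 −2.97 in both.

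ESC RNA gave the response of the assays. In 3 samples of 200 pg the Ct was 9.98 ± 0.11 (SD, n = 3) for Trim28, 14.24 ± 0.07 (SD, n = 3) for Setdb1 and 17.66 ± 0.44 (SD, n = 3) for Suv39h1. Over the series of 200, 100, 50 and 25 pg the slope of Ct on log2 of the RNA amount lay between −1.37 (Suv39h1) and −0.96 (Setdb2), where −1 is a doubling per cycle. All members were detected in all 10 samples except Setdb2, which was undetected in the sample of 32 pg from the other series, so its slope there (−2.95) is not usable. Slopes of the remaining members in that series lay between −1.38 (Suv39h2) and −1.07 (Ehmt2).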

How the data were processed

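Oocytes, blastomeres singly or in groups, intact embryos and diluted ESC RNA were preamplified for 18 cycles and measured for 192 assays by EvaGreen PCR on BioMark chips. The authors deposited Ct values, a score in PCR cycles given by the BioMark software, for 189 samples, with assays marked as passed or failed from their melting curves. They also deposited a log2 table that equals 30 minus Ct relative to Gapdh, Hspa8 and Lmnb1 (largest difference 1.03e-08), whereas their methods name Hnrnpr, Ssu72 and Ube2e1, so values were computed from Ct with the latter. Precision is set by the number of embryos and by the Ct of the control genes, since there is no read depth.

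Samples were averaged per oocyte or embryo, and stages were compared with limma 3.58.1 (R 4.3.3) over all stages, with Benjamini-Hochberg adjustment over 156 genes. Embryos of 1 stage are taken as independent, which the labels do not state. Gene pairs were tested by permutation (scipy 1.17.1), exact or with 100000 resamples where both groups held 10 or more. Scripts were tested on simulated data. The members and gene lists were chosen with earlier results of these data known. Other genes were named by largest difference per direction or highest rho. Of the main stages, 3 samples absent from the study's sample list were not used here. Sample numbers in the labels only count samples: same-numbered samples of different groups had a median correlation of −0.01 in their deviations, and 86 of 420 exceeded 0.1. Alternative controls, scalings, floors and sample sets were tried.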

Additional observations from a re-analysis of the deposited data

Results flagged for a closer look

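Among 24 groups of 4 to 10 embryos, 3 held an embryo far from the others of its stage, where chance gives about 1 in 20 groups. Suv39h1 was −13.94 in whole 2-cell embryo replicate 3, where it was undetected, against −5.06 to −1.17 in the other 7 replicates of that stage. Suv39h1 averaged −4.35 in one 8-cell embryo, against −6.13 to −5.73 in the other 6. Setdb2 averaged −3.49 in one 32-cell embryo, against −1.59 to −0.81 in the other 6.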

How the results depend on the processing

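The number of members called was 0 from MII oocyte to zygote, and 1 without Hnrnpr among the controls or with undetected values left out. It was 5 from zygote to 2-cell, 3 with single cells alone, 4 in the authors' table or without Ube2e1, and 6, Setdb2 included, with a floor at −10, no normalisation, the sample median, undetected values left out, or without Hnrnpr or Ssu72. Without normalisation the Setdb2 call was of a fall. From 2-cell to 4-cell the number of members called was 1, but 2 in the authors' table and 0 without normalisation or with single cells alone. From 4-cell to 8-cell it was 3, but 4 with every sample fitted, a floor at −10, undetected values left out or without Hnrnpr. At that step it was 2 without normalisation, with the sample median or with single cells alone. From 8-cell to 16-cell it was 1, but 3 in the authors' table, 2 with every sample fitted, 0 with the embryo as a random block, with single cells alone or with undetected values left out, and 0 to 1 with either 16-cell embryo left out (0 without replicate 4). From 16-cell to 32-cell it was 3, but 0 in the authors' table, 1 without normalisation, and 0 to 2 with either 16-cell embryo left out. In whole embryos it was 1 to 3 from 2-cell to 8-cell as embryos were left out (1 without 8-cell replicate 2), and 0 to 1 from 8-cell to 32-cell, with 0 also when the 3 further 2-cell samples, which may be whole embryos, were added. Equal counts need not hold the same members. Without normalisation, Setdb1, Setdb2 and Trim28 all lost their calls from 16-cell to 32-cell (limma adjusted p = 0.946, 0.648 and 0.287). The 1 called there was another member. With every sample fitted, the 1 called from 2-cell to 4-cell was not Suv39h2 (adjusted p = 0.0821).

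With sample numbers as a replicate block, 2 members were called from 8-cell to 16-cell, and the Suv39h2 step from 2-cell to 4-cell (−1.50, limma adjusted p = 0.113) and the Setdb2 step from 16-cell to 32-cell (0.97, adjusted p = 0.105) lost their calls. Same-numbered samples did not deviate together (median correlation −0.01 over 420 pairs), so the numbers do not pair the samples.

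Directions that turned were those of Trim28 without normalisation (−2.38 from zygote to 2-cell, −1.06 from 16-cell to 32-cell, −3.31 between the ends) and in the authors' table (−0.25 from 16-cell to 32-cell, −2.57 between the ends), and of Setdb2 from 16-cell to 32-cell without normalisation (−0.40). The Setdb2 difference from zygote to 2-cell, not called in the main fit, also turned without normalisation. In whole embryos normalised to the control genes, Setdb2 from zygote to 2-cell was 0.49 and Trim28 from 2-cell to 8-cell −0.21. Suv39h1 minus Suv39h2 was −0.18 from 2-cell to 4-cell with single cells alone, and from 8-cell to 16-cell 0.069 with Ct above 28 set to 28 and −0.53 to 0.52 with either 16-cell embryo left out. The rho of Trim28 with the lineage score was 0.23 without normalisation, 0.44 with samples scaled to their median gene, 0.33 in 16-cell samples and 0.23 without the 9 samples far below their embryo mean, an alternative chosen after seeing the data. That of Suv39h2 was 0.48 in 16-cell samples. The cause of these changes was not tested. Only 2 embryos carry the 16-cell stage, and undetected values fall lower where the control genes are more abundant.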
